A study of Mus musculus with 6 samples.

Results

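The genes described here encode 7 secreted growth and survival factors: Csf2 (granulocyte-macrophage colony-stimulating factor, GM-CSF), Hbegf (heparin-binding EGF-like growth factor), Areg (amphiregulin), Lif (leukaemia inhibitory factor), Osm (oncostatin M), Il2 (interleukin 2) and Tgfb1 (transforming growth factor β1). They were taken by name from the 33157 rows of a count table, in which each has 1 row, and all 7 were among the 13483 genes with enough counts to be tested. The RNA came from ILC3s (group 3 innate lymphoid cells), lymphocytes without antigen receptors that live in the gut wall. Wild-type mice were the source, and the small-intestinal cells were sorted as CD45-dim, lineage-negative, CD127-positive, KLRG1-negative cells with high CD90.2. Both groups were cultured for 4 h with recombinant mouse interferon-γ (IFN-γ) at 20 ng/mL. The control group received nothing further (3 libraries), and the other group also received insulin-like growth factor 1 (IGF-1) at 200 ng/mL (3 libraries). That the controls held IFN-γ is given by the series' design text, since the sample labels say only control or IGF-1. No culture without IFN-γ was analysed here, and no source used here gives the age or sex of the mice or says whether animals were pooled.

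ILC3s are known as a source of GM-CSF in the intestine, where it acts on macrophages and dendritic cells. HB-EGF and amphiregulin are made as membrane proteins of the EGF family, are cut free by metalloproteases, and bind the EGF receptor on epithelium and stroma. LIF and oncostatin M belong to the IL-6 family and signal through gp130. Interleukin 2 supports regulatory T cells through the IL-2 receptor, and TGF-β1 is secreted in a latent form that integrins and other proteins release.

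GM-CSF mRNA is the textbook case of an unstable cytokine message that carries AU-rich elements, repeats of the pentamer ATTTA, written here with T for U, after the stop codon. The stretches below show how this element looks in the messages of 5 of the factors, which differ in how densely they carry it. Each is the 30-base window with the most ATTTA pentamers in the GENCODE release M21 transcript of that gene (build GRCm38), in the sense of the transcript, with the pentamers in capitals.

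Csf2: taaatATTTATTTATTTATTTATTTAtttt

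Il2: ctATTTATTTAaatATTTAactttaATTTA

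Areg: ataATTTATTTAatATTTAagtgttATTTA

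Lif: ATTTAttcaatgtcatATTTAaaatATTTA

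Osm: ttttatATTTAtaaggcctATTTAtaatgt

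The Csf2 window, at chr11:54247325-54247354 on the minus strand, holds 5 overlapping pentamers. The windows of Il2 (chr3:37121040-37121069, minus strand) and Areg (chr5:91148369-91148398, plus strand) hold 4 each. That of Lif (chr11:4272414-4272443, plus strand) holds 3 and that of Osm (chr11:4240945-4240974, plus strand) 2. In the whole sequence after the stop codon, pentamers counted on the transcript strand with overlaps allowed, Csf2 had 9 in 317 bases, a density of 28.4 per kb that was above that of 99.96% of 19136 genes with at least 100 such bases. Areg had 4 in 253 bases (15.8 per kb) and Il2 7 in 581 bases (12.0 per kb). Tgfb1 had a single one in only 135 bases (7.41 per kb), and Osm 6 in 1017 bases (5.90 per kb). Hbegf had 4 in 1456 bases (2.75 per kb) and Lif 7 in 3180 bases (2.2 per kb). The median over all those genes was 1.30 per kb, and 61.6% of the 20634 genes with any sequence after the stop codon held at least 1 pentamer. Among genes with a stretch of like length (within 1.5-fold), at least as many pentamers were found in 0.056% for Csf2, 0.557% for Il2, 1.12% for Areg and 6.22% for Osm. The same share was 18.1% for Tgfb1, 33.6% for Hbegf and 38.3% for Lif. A match is a description of the letters and not evidence that a protein binds there.

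Total counts were 32573713 to 39206449 per library. Values are given as CPM, each library's counts scaled to a common total after TMM normalization. Nothing in the labels tells separate mice or cultures from repeat libraries of one source. The p-values therefore rest on library-to-library spread alone, and that spread may be technical. ILC3 markers were present in every library, from Tox (30.8 to 43.2 CPM) through Il7r (365.3 to 478.4 CPM) to Cxcr6 (2633 to 4182 CPM). Together 13 of them summed to 9425 to 10340 CPM in the controls and 10840 to 11370 CPM with IGF-1. That higher sum came from Cxcr6 (means 3024 and 4040 CPM) and Id2 (1931 and 2515 CPM), while 10 of the 13 had a negative log2 fold change. The 6 markers of CCR6-positive ILC3s summed to 842.3 to 1028 CPM in the controls and 855.7 to 969.2 CPM with IGF-1, most of it Gpr183. Of these, 0 were called. Ccr6 (0.42) and Gpr183 (0.06) were positive, and Nrp1 (-0.58), Cd4 (-0.52), Cntn1 (-0.30) and Cxcr5 (-0.09) negative. The 10 T cell markers, which also include Cd4, summed to 111.7 to 135.7 CPM in the controls and 122.2 to 157.5 CPM with IGF-1. Most of it was Lat (59.8 to 110.4 CPM) and Cd4 (18.3 to 35.3 CPM). Of the CD3 chains, Cd3g was at 4.305 to 15.6, Cd3d at 1.42 to 6.36 and Cd3e at 0.538 to 1.21 CPM. The mast cell, basophil, neutrophil and eosinophil markers summed to at most 1.495 CPM. Control replicate 3 stood apart in one marker: Jchain, made by plasma cells, was at 519 CPM there and at 0.103 to 0.209 CPM in the other 5 libraries. Of the other B cell markers, Cd79b was at 17.2 to 35.6 CPM and Ighm at 14.9 to 27.2 CPM, while Ms4a1 had no count. The 10 fibroblast and endothelial markers summed to 100.1 to 126.4 CPM in the controls and 91.4 to 101.1 CPM with IGF-1, most of it Pecam1 (76.5 to 110.2 CPM). The 11 epithelial markers summed to 33.8 to 48.7 CPM in the controls and 16.4 to 23.9 CPM with IGF-1, most of it Epcam. Epcam fell (log2 fold change -1.13, edgeR adjusted p = 0.0442), while Krt19 and Alpi had no count in any library. Muc2 lay on the other side, at 0.215, 0.658 and 0.0836 CPM in the controls and 1.725, 1.537 and 0.909 CPM with IGF-1 (2.12, edgeR adjusted p = 0.413). Krt18 reached at most 2.55 CPM and Krt8 at most 1.149 CPM. The 14 macrophage, monocyte and dendritic cell markers summed to 245.8 to 322 CPM in the controls and 167.6 to 186.6 CPM with IGF-1. Most of that sum was Fcgr3, which fell (-0.80, edgeR adjusted p = 0.0392). Cd68, Zbtb46 and Cd14 were present at lower levels. Their means were 12.68, 12.6 and 2.808 CPM in the controls and 14.4, 8.913 and 4.169 CPM with IGF-1. Lyz2, Itgam and Mrc1 stayed at or below 0.508 CPM. Of 10 markers of natural killer cells and NCR-positive ILC3s, 8 were tested, and only Ncr1 was called (1.34, edgeR adjusted p = 0.00903). Klrb1c (-0.32) and Gzma (-0.35) were negative and the other tested ones positive: Prf1 (1.415), Itga2 (0.57), Tbx21 (0.26), Klrk1 (0.21) and Klrd1 (0.05). Prf1, the largest of the list, stood at 2.58, 1.435 and 2.03 CPM in the controls and 6.80, 4.09 and 5.26 CPM with IGF-1 (edgeR adjusted p = 0.204). Eomes and Klra8 had no count. Leaving out 1 library at a time ended the calls of Epcam and Fcgr3 in all 6 fits (edgeR adjusted p up to 0.239 and 0.226) and that of Ncr1 in 3, without control replicate 3, IGF-1 replicate 1 or IGF-1 replicate 2 (edgeR adjusted p up to 0.0718). The part of these marker differences in the results below was not tested, and in bulk RNA fewer expressing cells and less RNA per cell cannot be told apart.

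Csf2 was the single member that passed the test, and it rose with IGF-1. The control libraries held 124, 148 and 147 CPM of Csf2 and the IGF-1 libraries 224, 266 and 222 CPM. Every IGF-1 library lay above every control, and the gap between the groups was wider than the spread within either. The mean went from 140 ± 13.2 (SD, n = 3) to 237 ± 24.9 CPM (n = 3), a log2 fold change of 0.76 (SE 0.13, 95% interval 0.48 to 1.05), which is 1.70-fold. By edgeR's quasi-likelihood test the adjusted p, a Benjamini-Hochberg value over all 13483 genes with 0.05 as the threshold, was 0.0392, and the gene was 45th by p. The call held in 8 of the other 9 analyses of all 6 libraries (adjusted p from 5.81e-06 to 0.0902) and in none of the 6 that each left out 1 library. Without control replicate 3, the library with Jchain, the log2 fold change was 0.80 with an edgeR adjusted p of 0.204.

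Hbegf, the EGF receptor ligand, was the next highest by level and by p, with values on the same side. It stood at 62.9, 72.8 and 66.6 CPM in the controls and at 88.3, 94.4 and 107 CPM with IGF-1, again with no overlap. Its means were 67.5 ± 4.99 and 96.5 ± 9.35 CPM (SD, n = 3 each). The log2 fold change of 0.52 (SE 0.13, 95% interval 0.23 to 0.80) had an edgeR adjusted p of 0.139, which missed the threshold. DESeq2 on the same genes gave the same size, 0.52, and called it (adjusted p = 0.0196), so whether Hbegf passes depends on the tool, and also on the filter for low counts.

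Osm lay on the other side of 0. Its libraries held 33.3, 28.9 and 35.9 CPM without and 23.0, 26.6 and 28.8 CPM with IGF-1, where the highest IGF-1 library and the lowest control nearly met. The log2 fold change was -0.32 (SE 0.17, 95% interval -0.69 to 0.05; edgeR adjusted p = 0.489). Lif, from the same family, stood at 29.0, 35.2 and 41.3 CPM in the controls and 33.3, 40.5 and 38.8 CPM with IGF-1. The groups of Lif lay within one another, with a log2 fold change of 0.09 (SE 0.17, edgeR adjusted p = 0.891) and a 95% interval of -0.28 to 0.47, whose upper end is 1.39-fold.

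The other 3 members were scarce. Areg had 23, 37 and 65 counts in the control libraries and 13, 5 and 28 with IGF-1, which is 0.618, 1.11 and 1.81 CPM against 0.335, 0.145 and 0.748 CPM. The highest IGF-1 value lay above the lowest control, so the groups overlapped. The log2 fold change of -1.52 had an SE of 0.92 and a 95% interval of -3.55 to 0.52 (edgeR adjusted p = 0.574). Il2 had 12, 32 and 45 counts without and 31, 15 and 63 with IGF-1 (log2 fold change 0.20, SE 0.87, 95% interval -1.71 to 2.12; edgeR adjusted p = 0.960). Tgfb1 had 124, 70 and 108 counts without and 94, 69 and 182 with IGF-1 (0.14, SE 0.49, 95% interval -0.96 to 1.23; edgeR adjusted p = 0.952). A fall as large as the rise of Csf2 lay inside the intervals of all 3, and an equal rise inside those of Il2 and Tgfb1. Markers of ILC2s, lymphocytes known to make amphiregulin, summed to 54.1 to 64.0 CPM in the controls and 45.4 to 93.3 CPM with IGF-1. By group mean the highest of them was Calca, at 23.99 CPM in the controls and 26.88 CPM with IGF-1. Calca stood at 53.92 CPM in IGF-1 replicate 3, against 17.51 and 9.223 CPM in IGF-1 replicates 1 and 2. Arg1 (means 11.28 and 11.48 CPM), Klrg1 (10.19 and 11.93 CPM) and Hpgds (7.451 and 8.469 CPM) came next. Il1rl1 reached at most 3.13 CPM.

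**Figure D1:**
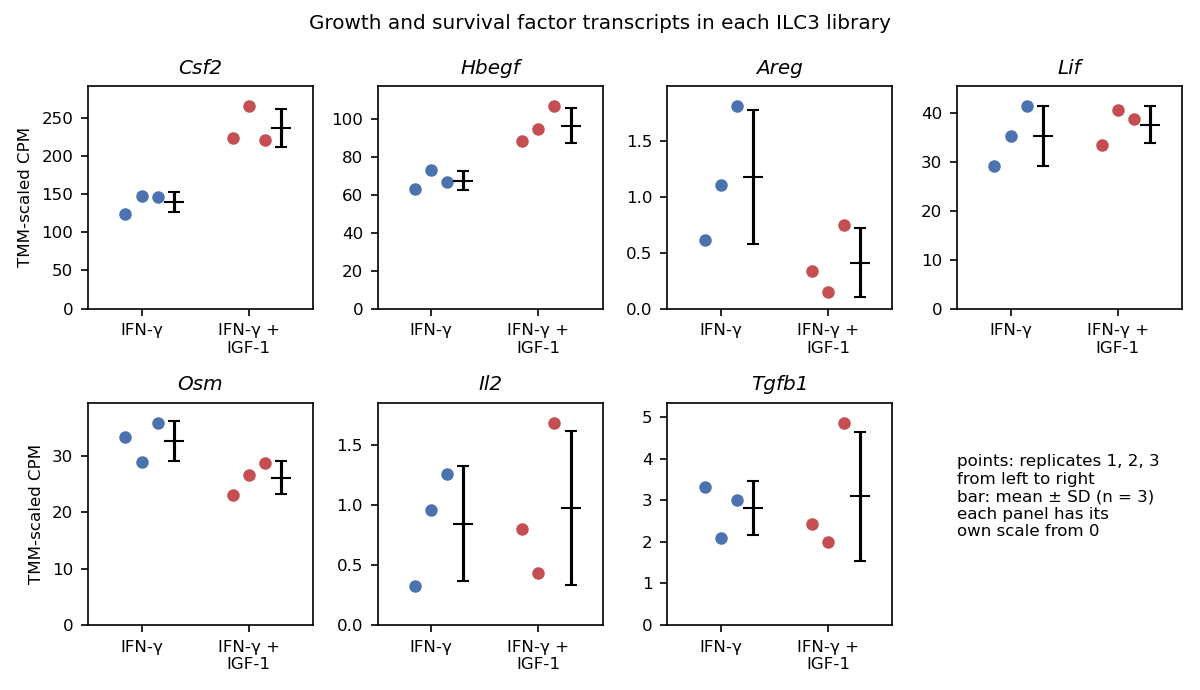
TMM-scaled CPM of each factor (vertical axes, each from 0) in the 3 libraries with IFN-γ and the 3 with IFN-γ and IGF-1; points are libraries and the bars at the side are mean ± SD (n = 3). Csf2 and Hbegf separate upward, Osm downward, and the other 4 overlap.

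Of the 7 members, 1 was called higher by edgeR, against 0.230% of all genes tested, and 0 were called lower, against 0.267%. The count of members called lower was also 0 at an unadjusted p under 0.05 (6.24% of all genes), by DESeq2 (1.77% of all genes) and by limma-voom (0.445%). Upward, 2 members had an unadjusted p under 0.05 (5.58% of all genes), and DESeq2 called 2 (1.39%) and limma-voom 1 (0.267%). The groups did not overlap in 2 members upward (8.81% of all genes) and in 1 downward (9.17%). The median log2 fold change of the members was 0.14, beside -0.01 over all genes tested. The genewise biological coefficient of variation, as edgeR names it, was 0.12 for both Csf2 and Hbegf, 0.16 for Lif and Osm and 0.46 for Tgfb1. It was above 0.7 for the scarce Areg (0.74) and Il2 (0.73). EdgeR draws this value toward a trend with level, so a link between spread and level is partly built in. The members were proposed with results of these data known, so their counts support nothing beyond each gene's own values.

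**Figure D2:**
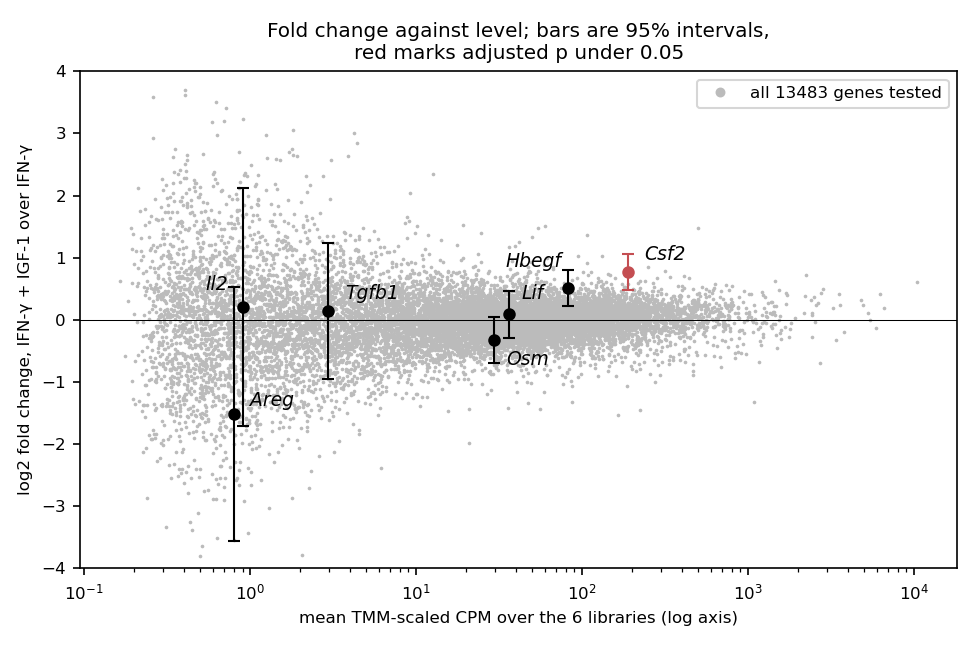
Log2 fold change (vertical axis) against mean TMM-scaled CPM over the 6 libraries (log axis) for all 13483 genes tested (grey; 24 lie beyond the axis limits of 4) and the 7 factors with 95% intervals; red marks a factor with an adjusted p under 0.05. Csf2 alone among the factors is red, and the intervals widen from Csf2 to the scarce Areg and Il2.

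Levels of different genes were compared as CPM per kilobase of exon. In the controls the order was Csf2 (174.5 ± 16.5, SD, n = 3), Hbegf (28.4 ± 2.10), Osm (14.4 ± 1.56), Lif (8.69 ± 1.52), Tgfb1 (1.29 ± 0.295), Areg (0.970 ± 0.494) and Il2 (0.738 ± 0.416). The first 4 did not overlap their neighbours, and the last 3 overlapped one another. With IGF-1 the order was kept down to Tgfb1, and Il2 (0.850 ± 0.561) and Areg (0.337 ± 0.254) stood in the opposite order, with overlapping values.

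Within the ligand families, Csf2 held 97.7% to 98.7% of the length-scaled signal of the 3 colony-stimulating factors Csf1, Csf2 and Csf3 in every library. Hbegf held 91.8 ± 1.64% of that of 11 EGF family ligands in the controls and 96.9 ± 1.35% with IGF-1 (SD, n = 3 each). Areg held 3.11 ± 1.56% and 0.775 ± 0.510%, and its share was 0.295% to 4.81% over the 6 libraries. In the IL-6 family Clcf1, a cytokine of the same group, was above both members at 42.0 ± 5.18% of the controls' signal, with Osm at 29.7 ± 1.03% and Lif at 18.0 ± 3.13%. Tgfb1 took 49.9% to 98.8% of the 3 TGF-β isoforms. Il2 was below the interleukin 15 gene Il15 in the γ chain family, whose share in the controls was 69.7 ± 4.79%, against 11.02 ± 6.52% for Il2.

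The partner genes of the factors were read from 15 lists of ligands, receptors, processing enzymes and regulators, 170 genes in all, of which 125 were tested. By edgeR 0 of them were called in either direction, beside 0.497% of all genes tested. An unadjusted p under 0.05 was found for 6 upward (5.58% of all genes) and 10 downward (6.24%). DESeq2 called 0 higher (1.39% of all genes) and 2 lower (Il2ra and Jun, beside 1.77%). By limma-voom 0 were called higher (0.267%) and 1 lower (Il2ra, beside 0.445%). The same shares over all genes stand beside the counts of the single lists below. Of the 125, 44 had a positive and 81 a negative log2 fold change, with a median of -0.13 beside -0.01 over all genes.

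Receptors for GM-CSF were scarce. Csf2ra, the specific chain, stood at 3.68, 2.69 and 3.15 CPM in the controls and 2.27, 1.28 and 1.28 CPM with IGF-1 (log2 fold change -0.98, SE 0.50, edgeR adjusted p = 0.487). The shared chain Csf2rb was at 1.91, 2.90 and 2.59 CPM and at 1.08, 15.8 and 1.23 CPM, so IGF-1 replicate 2 alone set its mean. Csf2rb and Csf2rb2 are near-identical copies, and how reads were split between them is uncertain. Of the 4 receptor genes tested 1 was positive and 3 negative, and 0 passed by edgeR, DESeq2, limma-voom or an unadjusted p under 0.05. Of the other cytokines of the GM-CSF neighbourhood, Il3 had no count in any library, which allows up to 0.0765 to 0.0921 CPM by library (3 counts each, before TMM scaling, counting error only). Csf1, the macrophage factor, was at 17.5 ± 1.23 and 19.8 ± 2.27 CPM (0.18, SE 0.19). Csf3 and Il4 were the other 2 that could be tested, and 0 of the 3 passed by any of the 3 tools or at an unadjusted p under 0.05.

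The receptor for HB-EGF and amphiregulin had few reads: Egfr had 5 counts over the controls and 38 over the IGF-1 libraries and was not tested. Adam17 and Adam10, the metalloproteases that release these ligands, were at 86.5 ± 5.26 and 78.8 ± 3.67 CPM (-0.13, SE 0.12) and at 112 ± 11.3 and 93.4 ± 18.2 CPM (-0.27, SE 0.16). Cd9, a tetraspanin known to associate with the HB-EGF precursor, stood at 45.6 ± 5.00 and 52.5 ± 15.5 CPM (0.20, SE 0.20). Of the 7 shedding genes tested 2 were positive and 5 negative, with a median of -0.14. The 3 further ligands tested, Egf, Nrg4 and Ereg, each had at most 1.71 CPM in either group mean. In both lists and for the single tested receptor Erbb3, 0 passed by edgeR, DESeq2, limma-voom or an unadjusted p under 0.05.

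In the IL-6 family Il6 stood at 3.12, 1.94 and 1.36 CPM in the controls and 1.36, 0.406 and 0.561 CPM with IGF-1 (-1.46, SE 0.72, edgeR adjusted p = 0.470). Clcf1 was at 37.7 ± 6.95 and 37.0 ± 1.54 CPM (-0.03, SE 0.17). The receptor chains were low: Il6st (gp130) was at 6.87 ± 2.21 and 8.91 ± 2.69 CPM, Lifr at 1.17 ± 1.25 and 2.40 ± 2.45 CPM and Osmr at 2.04 ± 0.896 and 1.93 ± 0.890 CPM. None of the 4 ligands or 5 receptor chains tested passed by edgeR, DESeq2 or limma-voom, and 0 had an unadjusted p under 0.05.

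The IL-2 receptor, unlike the ligand, was abundant. Il2ra, the chain that raises affinity for IL-2, stood at 1115, 882.5 and 1047 CPM in the controls and 610.2, 679.7 and 688.6 CPM with IGF-1, without overlap. Its log2 fold change of -0.62 (SE 0.12) missed the threshold by edgeR (adjusted p = 0.0688) and passed by DESeq2 (adjusted p = 0.000124) and limma-voom (adjusted p = 0.0471). In the 6 fits that each left out 1 library, edgeR called Il2ra in 0 (adjusted p 0.0810 to 0.345). Il2rb, the signalling chain, was at 680.7 ± 105.8 and 724.1 ± 79.9 CPM (0.09, SE 0.14), and Il2rg, the common γ chain, at 1249 ± 154.1 and 1530 ± 41.2 CPM (0.29, SE 0.11, edgeR adjusted p = 0.337). Stat5a, a transcription factor downstream of IL-2 and GM-CSF receptors, was at 52.5 ± 13.5 and 34.0 ± 4.75 CPM (-0.63, SE 0.20, edgeR adjusted p = 0.229). Of the 7 receptor and signal genes tested 3 were positive and 4 negative, with an unadjusted p under 0.05 for 1 upward (Il2rg) and 3 downward (Il2ra, Stat5a and Jak3).

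**Figure D3:**
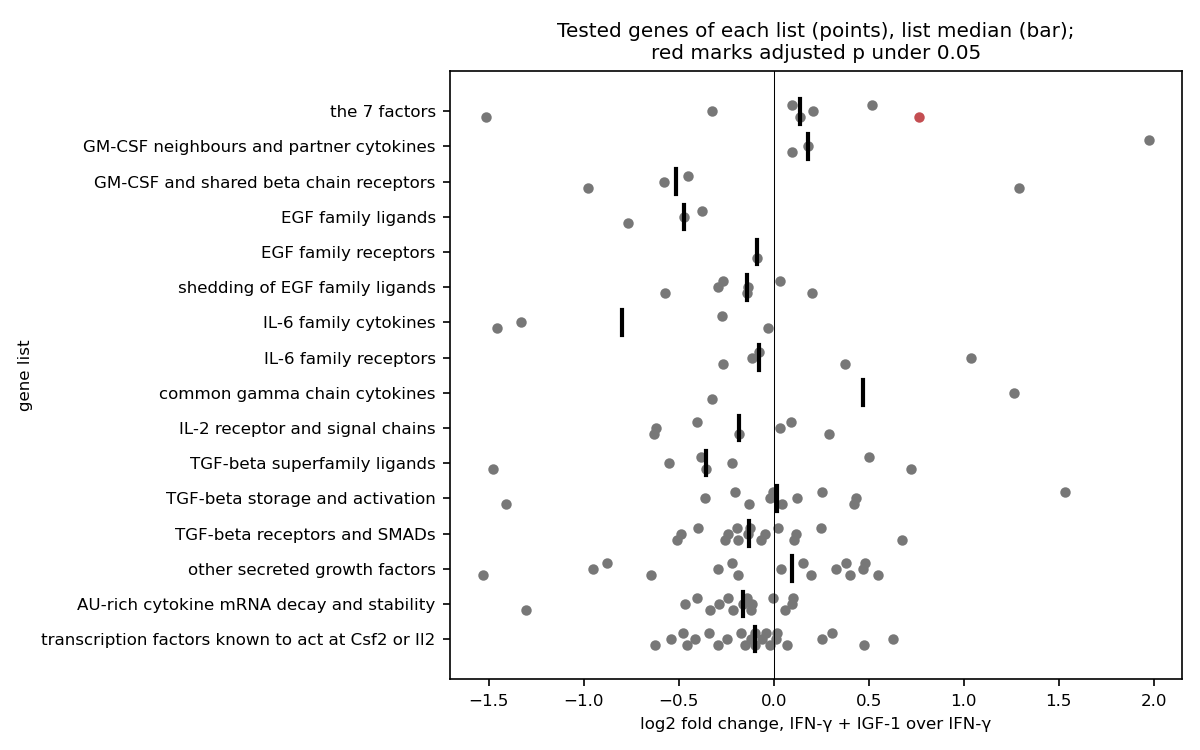
Log2 fold change (horizontal axis) of the 7 factors and of each tested gene in the 15 lists of partner genes (rows); black bars are list medians and red marks an adjusted p under 0.05. Csf2 is the 1 red point.

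For TGF-β, both receptor chains were present, Tgfbr1 at 66.7 ± 4.91 and 58.3 ± 9.67 CPM (-0.19, SE 0.15) and Tgfbr2 at 157.9 ± 17.7 and 132.3 ± 7.75 CPM (-0.26, SE 0.13). Smad7, an inhibitor that TGF-β signalling induces, held 24.8, 23.6 and 30.03 CPM in the controls and 19.0, 19.1 and 17.9 CPM with IGF-1. The groups of Smad7 did not overlap, but its log2 fold change of -0.49 (SE 0.18) had an edgeR adjusted p of 0.301. The integrin chain Itgb3 was at 383.9 ± 21.5 and 298.2 ± 19.1 CPM (-0.36, SE 0.11, edgeR adjusted p = 0.225), and Nrros, which tethers latent TGF-β in myeloid cells, at 10.9 ± 1.34 and 14.7 ± 3.43 CPM (0.43, SE 0.24). Of 16 receptor and SMAD genes 5 were positive and 11 negative, and of 12 storage and activation genes 6 were positive and 6 negative. In these lists and among 7 further ligands of the superfamily, 0 passed by edgeR, DESeq2 or limma-voom, and 3 had an unadjusted p under 0.05 (Smad7, Tgif1 and Itgb3, all negative).

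Among 16 other secreted growth factors tested, 9 were positive and 7 negative, and 0 passed by edgeR, DESeq2 or limma-voom. The 3 with an unadjusted p under 0.05 were Mif, a macrophage-acting cytokine (226.1 ± 24.1 and 312.6 ± 54.8 CPM, 0.47, SE 0.15), Tnfsf11, which encodes RANKL (26.8 ± 3.95 and 37.3 ± 6.84 CPM, 0.48, SE 0.19), and Flt3l, a growth factor for dendritic cells (48.6 ± 3.59 and 60.9 ± 5.08 CPM, 0.33, SE 0.13). Their edgeR adjusted p-values were 0.241, 0.334 and 0.370. In all 3 every IGF-1 library lay above every control, as in 8.81% of all genes tested. Being picked for small p, they would tend to separate in this way.

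The list of regulators of cytokine mRNA decay and stability, which holds both binders of AU-rich elements and the Regnase and Roquin proteins, known for recognising stem-loops, had 15 genes tested, of which 3 were positive and 12 negative (median -0.16) and 0 passed by edgeR, DESeq2 or limma-voom. Zfp36l2, a decay factor that binds AU-rich elements, had the smallest p in that list, the only one under 0.05 unadjusted. It held 62.6, 65.3 and 62.0 CPM in the controls and 52.0, 42.2 and 43.3 CPM with IGF-1 (-0.47, SE 0.14, edgeR adjusted p = 0.193). Zfp36, the founding member of the family, was at 48.6 ± 5.12 and 41.1 ± 3.03 CPM (-0.24, SE 0.14), and Zc3h12d, of the Regnase family, at 2.19 ± 1.48 and 0.884 ± 0.541 CPM (-1.31, SE 0.75). Whether these levels bear on the level of Csf2 was not tested.

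Of 23 transcription factors known to act at cytokine genes such as Csf2 and Il2, 0 were called by edgeR, and 2 upward and 3 downward had an unadjusted p under 0.05. Jun, an AP-1 subunit, was at 109 ± 8.14 and 70.9 ± 8.90 CPM (-0.62, SE 0.13), which missed the threshold by edgeR (adjusted p = 0.0928) and passed by DESeq2 (adjusted p = 0.00233). With 1 library left out at a time, edgeR called Jun in 0 of 6 fits (adjusted p 0.0720 to 0.388). Ikzf3, which encodes Aiolos, stood at 88.7 ± 11.1 and 123.5 ± 12.7 CPM (0.48, SE 0.14, edgeR adjusted p = 0.192). In the list 7 were positive and 16 negative, with a median of -0.10, and DESeq2 called 1 (Jun) and limma-voom 0.

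The genes whose pattern over the 6 libraries was most like that of each well-expressed member were found by the root mean square difference of log2 CPM after each gene was centred on its own mean, among 8344 named genes of at least 10 CPM. For Csf2 these were Gstm5 (0.07), Eif2s1 (0.08) and Snap47 (0.09), beside a median of 0.44 over all those genes. Snap47 rose (36.3 to 61.6 CPM, edgeR adjusted p = 0.0392; 0.0699 to 0.240 in the 6 fits without 1 library), Eif2s1, a translation initiation factor subunit, was at 175 and 270 CPM (edgeR adjusted p = 0.0635), and Gstm5 at 20.1 and 34.1 CPM (edgeR adjusted p = 0.121). For Hbegf they were Kctd12 (0.07), Nedd9 (0.07) and Aacs (0.08), for Lif Ptpre (0.04), Sec31a (0.06) and Surf2 (0.07), and for Osm Fzr1 (0.04), Pitpnm1 (0.04) and Mau2 (0.05). The 6 libraries fix these likenesses, which are a description with no test.

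**Figure D4:**
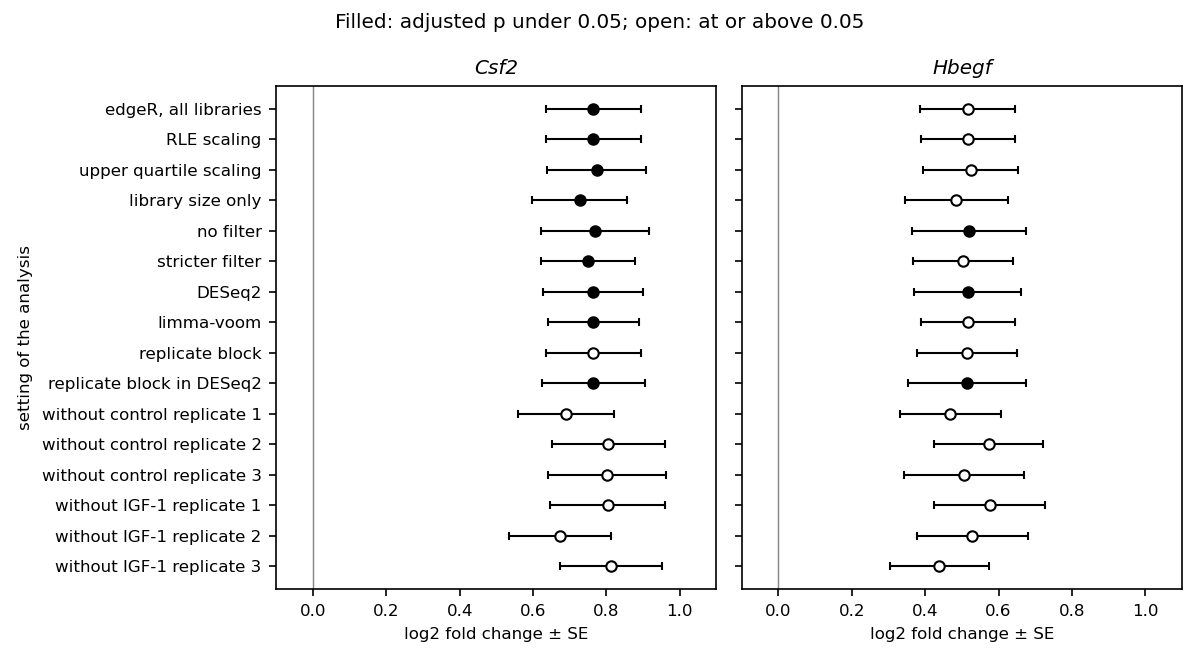
Log2 fold change ± SE of Csf2 and Hbegf (horizontal axes) in each analysis (rows); filled points have an adjusted p under 0.05. Csf2 lay between 0.67 and 0.81 and Hbegf between 0.44 and 0.58, and no point of the 6 analyses without 1 library is filled.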

How the data were processed

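The authors deposited raw counts per gene, 1 column per library, in 6 libraries made with the SMART-Seq HT kit, which does not mark strand. The submitters' processing notes name build GRCm39, featureCounts (1.5.3), HISAT2 (2.2.1), fastp (0.23.2) and SAMtools (1.15.1). What each did, the annotation, the strand setting and the handling of multi-mapped reads: not given in the sources used here. Genes were filtered with filterByExpr (minimum count 10, minimum total 15), which left 13483 of 33157 rows and removed 0.0806% of counts. The test was edgeR's quasi-likelihood test (version 4.0.16, under R 4.3.3; TMM, glmQLFit, glmQLFTest, group as the only term, Benjamini-Hochberg at 0.05). The SE is the log2 fold change divided by the square root of F. Alternatives used DESeq2 1.42.0, limma 3.58.1, other scalings and filters, a replicate block and each library left out.

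Replicate pairs differed by far more than sampling noise (chi-square per degree of freedom 37.0 to 82.8). An exact permutation test of 3 libraries against 3 cannot go below 0.1. In 3 simulated datasets of this comparison over 13483 genes, each with 200 changed genes of at least 10 CPM, the test called 25.6% of those with a log2 change of 0.6, 83.2% at 1 and 97.1% at 1.5. Exon lengths and transcript sequences came from GENCODE M21 (GRCm38), all 7 members matched by symbol, and they give no coordinates for the counts. The reads carry no molecular identifiers, so PCR copies count as separate reads and the count limits cover counting error only. The members and lists were chosen with earlier results of these data known, as were the alternatives and the naming rule (all members, called list genes, up to 3 of smallest p per list, fixed receptors, most alike genes). Clcf1, Csf2rb2, Il3, Jak3 and any other list genes named beyond that rule were chosen after their values were seen. One listed gene is not reported here and was left out of the list counts and the plot of lists, though not of the fit over all genes.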

Additional observations from a re-analysis of the deposited data

How the results depend on the processing

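Csf2 was positive in all 15 alternatives and Hbegf in all 15, Osm negative in all 15 and Areg negative in all 14 in which it was tested. With the replicate number as a block the log2 fold change of Csf2 was 0.76 and its edgeR adjusted p 0.0902, above the threshold, and 3 genes were called higher and 5 lower in place of 31 and 36. Same-numbered libraries did not deviate together (correlation across genes -0.05, 0.00 and 0.06), so the numbers were not taken as pairs. Over the fits that each left out 1 library, Csf2 ranged from 0.67 to 0.81 (edgeR adjusted p from 0.0651 to 0.209), Lif from -0.027 (without control replicate 1) to 0.23, Il2 from -0.45 (without IGF-1 replicate 3; -0.18 without control replicate 1) to 0.60, and Tgfb1 from -0.35 (without IGF-1 replicate 3; -0.04 without control replicate 2) to 0.37. In those fits 0 to 24 genes were called higher and 0 to 31 lower; where edgeR called 0 higher, 512 to 545 genes had an unadjusted p under 0.05 upward, and where it called 0 lower, 688 downward. Hbegf passed when low counts were not filtered (0.52, adjusted p = 0.0467), by DESeq2 (0.52, adjusted p = 0.0196) and by DESeq2 with the block (0.51, adjusted p = 0.0485). The genes called higher and lower were 171 and 258 with no filter, 63 and 115 with at least 10 CPM in 3 libraries, 188 and 239 by DESeq2, 151 and 218 by DESeq2 with the block, and 36 and 60 by limma-voom. The cause of these differences was not tested. Alternatives for Il2ra, Jun, Zfp36l2, Fcgr3, Epcam, Ncr1 and Snap47 were added after seeing the data, and all kept their direction. Areg, Il2 and Tgfb1 had too few counts for the stricter filter. DESeq2 without the block gave Areg no adjusted p, and with the block an adjusted p of 0.551.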
